A study of Mus musculus with 15 samples.

Results

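Irf7, Irf9 and Ifitm3 are interferon genes of the mouse, and each was measured by 1 of 20205 cDNA probes on 15 two-colour arrays. They were found by symbol in the platform annotation, updated through gene identifiers, among 9834 named genes. The mean ratio over the same arrays led to their choice, so those ratios are given as a description without a test. Every array held RNA of a lymphoid embryonic stem (ES) cell line that had been treated and RNA of that line left untreated, each in its own dye. Going by the numbers of the titles, Cy5 marked the treated RNA on the 8 arrays 1 to 8 and Cy3 marked it on the 7 arrays 9 to 15, the dye swaps. The labels name no treatment, dose, time, clone or strain. They do not say which arrays share RNA or whether cultures were separate, so the spread between arrays may be technical. Their protocol text describes organs and a reference pooled from 6 control animals, which does not match the line named in the channels; the channel names were followed.

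Interferons are secreted proteins that warn cells of viral infection. Type I interferons bind a receptor whose kinases activate the transcription factor complex ISGF3, and IRF9 is the DNA-binding subunit of that complex. ISGF3 binds interferon-stimulated response elements, short repeats built on GAAA, and switches on many antiviral genes. IRF7 is a transcription factor that drives interferon-alpha genes and is itself induced by interferon, which closes a feedback loop. IFITM3 is a small membrane protein that hinders viral entry at endosomes; the gene is also known as fragilis and is expressed in early germ cells.

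A value below is the deposited log2 ratio of both channels, where 0 means equal signals. The sources used here do not give the direction of the ratio. It was read as treated over untreated with the swaps already turned, because 1117 values of arrays 1 to 8 were placeholders for an empty channel, all above 0, and 882 values of arrays 9 to 15 were placeholders below 0. That reading rests on the convention of Cy5 over Cy3 and was chosen with the data in view. Other values do not favour it. Arrays of opposite orientation correlated over probes at a median r of -0.058 (56 pairs) and those of the same orientation at 0.083 (49 pairs). In limma's test, 4 of 9720 genes passed for the mean of the orientations and 254 for their difference. With the swaps turned, a dye effect of single genes would also enter that difference. These values therefore do not decide between the readings. Under the reading chosen here, a negative value means less RNA in the treated line. If the swaps were not turned, the difference between the orientations would carry the treatment instead, so that difference is given for each gene too. In RNA of whole cultures, fewer cells of a type and less RNA per cell cannot be told apart. A ratio also gives no level, so whether the line holds ES or lymphoid markers could not be checked.

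Between 19213 and 19973 probes per array had a measured value, and the standard deviation (SD) of an array's ratios ran from 0.35 to 0.82. Between 3.61 and 16.1% of an array's values lay, after the array's constant was taken off, on log2 of some whole number from 1 to 6 over another, and such values are called dim here. Intensities were not used, so a dim value may be a chance match and does not by itself show low signal. Arrays 7, 8 and 15 had the fewest placeholders (17, 30 and 39) and the lowest shares of dim values (3.7, 3.6 and 4.6%). Fits were also made without these arrays, and the cause was not tested. The genes Irf7, Irf9 and Ifitm3 had no placeholders. Irf7 and Irf9 were measured on all 15 arrays and Ifitm3 on 14, without array 13.

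Irf7 averaged below 0 in both orientations, but in Cy5 that average came from arrays 1 and 4. With the treated RNA in Cy5, arrays 1 to 8 gave -3.02, -0.08, -0.25, -2.39, 0.11, 0.62, 0.11 and 0.13. Arrays 1 and 4 lay far below the rest, 8.12-fold and 5.23-fold below equality, and the other 6 spanned 0. Only 0.0884% of the probes on array 1 and 0.251% of those on array 4 had a lower value, and neither of these Irf7 values was dim. The mean was -0.60 ± 1.34 (SD, n = 8 arrays), while the median was 0.017 and 4 of 8 arrays were below 0.

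With the treated RNA in Cy3, arrays 9 to 15 gave -1.28, -0.51, -0.35, -0.99, -0.05, -0.81 and -0.21 for Irf7. All 7 lay below 0, with a mean of -0.60 ± 0.45 (SD, n = 7 arrays), a median of -0.51 and no array as low as arrays 1 and 4. The Irf7 values of arrays 2, 8 and 12 were dim. The orientations overlapped. The mean of both orientations, the treatment component, was -0.60 ± 0.24 (SE, n = 15 arrays), a ratio 1.51-fold below equality. The median over all arrays was -0.25. Leaving out array 1 gave -0.42 and leaving out array 4 gave -0.47.

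Irf9 was the only one of the 3 genes whose orientations stood apart. With the treated RNA in Cy5, arrays 1 to 8 gave -0.71, 0.27, 0.70, 0.15, 0.38, 0.50, -0.12 and -0.03. Array 1 was the low one, and 5 of 8 arrays were above 0; the values of arrays 1 and 6 were dim. The mean was 0.14 ± 0.44 (SD, n = 8 arrays).

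With the treated RNA in Cy3, arrays 9 to 15 gave -0.30, -0.56, -0.65, -0.64, -0.34, -0.86 and -1.28 for Irf9. All 7 lay below 0, and array 15 was the lowest. The mean was -0.66 ± 0.33 (SD, n = 7 arrays). Only array 1 of the Cy5 orientation reached the range of the swaps. Over all genes measured on these 7 arrays, 388 of 8712 (4.45%) were below 0 on each of them. The treatment component of Irf9 was -0.26 ± 0.10 (SE, n = 15 arrays), 1.20-fold below equality, with 10 of 15 arrays below 0.

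Ifitm3 varied within both orientations. With the treated RNA in Cy5, arrays 1 to 8 gave -1.52, 0.48, -0.67, -0.21, -0.14, -0.24, -0.74 and -1.12. Only array 2 was above 0, and arrays 1 and 8 were below -1. The mean was -0.52 ± 0.63 (SD, n = 8 arrays) and the median -0.45.

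With the treated RNA in Cy3, arrays 9, 10, 11, 12, 14 and 15 gave -2.99, 0.50, 0.68, -0.52, -0.20 and -0.98 for Ifitm3. Array 9 stood lowest, 7.93-fold below equality, with 0.0771% of that array's probes below it, and this value was dim. Arrays 10 and 11 were above 0. The mean was -0.59 ± 1.33 (SD, n = 6 arrays) and the median -0.36. The treatment component was -0.55 ± 0.24 (SE, n = 14 arrays), 1.47-fold below equality, and without array 9 it was -0.31. Ifitm3 sits in a cluster of close relatives, and whether its cDNA probe also captured RNA of those relatives was not tested.

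**Figure D1:**
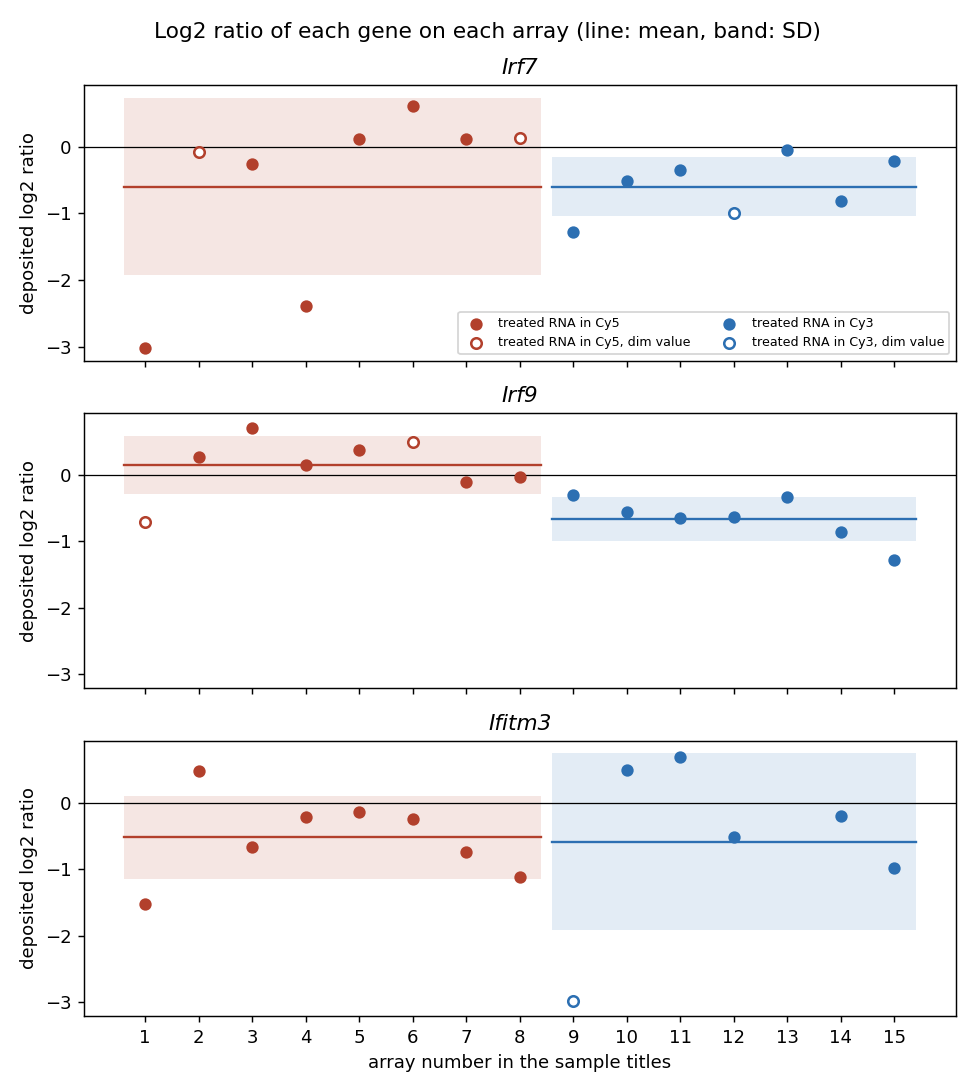
Deposited log2 ratio (y axis) of Irf7, Irf9 and Ifitm3 on each array (x axis, number in the sample titles), with the treated RNA in Cy5 in red and in Cy3 in blue. Lines are means and bands are SDs of an orientation, and open points are dim values; Irf7 is lowest on arrays 1 and 4, Ifitm3 on array 9, and Irf9 is below 0 on all 7 dye swaps.

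The transcription start of Ifitm3 is shown because it holds response element letters next to each other. The core of the interferon-stimulated response element, GAAA followed by any 2 bases and a second GAAA, was searched on both strands in RefSeq windows from 250 bases before to 50 bases after each annotated start (GRCm38.p6). It occurred in 1131 of 32851 windows (3.44%). The window of Ifitm3 held it 2 times, on the gene's own strand, beginning 2 and 19 bases after the first base of the transcript. The following 30 bases at chr7:141010715-141010744, minus strand, run 5′ to 3′ from the annotated start, with the matches in capitals.
Ifitm3: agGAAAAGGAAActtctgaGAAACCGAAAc
The window of Irf7 and both windows of Irf9 held no match, which says only that these letters are not there. The clones behind the probes are not placed on the genome here.

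The spread of Irf7 and Ifitm3 between arrays was wide for this platform. The SD over arrays was 0.99 for Irf7, 0.94 for Ifitm3 and 0.56 for Irf9, against a median of 0.41 for the 19863 probes that had 4 or more values in both orientations. Of those probes, 92.5% had a lower SD than Irf7, 91.3% a lower SD than Ifitm3 and 70.6% a lower SD than Irf9. The genes were chosen for their mean ratio over these same arrays. Single low arrays move both the mean and the SD, so these ranks are no independent result. On 5 arrays (1, 9, 12, 14 and 15) all 3 genes were below 0. On 7 arrays 2 of them were, including array 13, where Ifitm3 had no value, and on 3 arrays 1 was. These counts rest on the ratios that led to the choice of the genes, so they are descriptions.

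No pair of the 3 genes passed a test of correlation across arrays, with the ratios as deposited or with the swaps turned. Pairs were tested with two-sided permutation tests (100000 permutations), with Benjamini-Hochberg adjustment over 3 pairs; arrays may share RNA, which such tests do not see. For Irf7 and Irf9, Pearson's r was 0.30 (permutation p = 0.280, adjusted 0.420) and Spearman's rho 0.49 (permutation p = 0.0690, adjusted 0.207) over 15 arrays. Without arrays 1 and 4, r was 0.51. Within Cy5 arrays it was 0.64 (n = 8) and within Cy3 arrays -0.30 (n = 7), so the sign was not shared.

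For Irf7 and Ifitm3, r was 0.33 (permutation p = 0.240, adjusted 0.420) and rho 0.14 (permutation p = 0.638, adjusted 0.683) over 14 arrays. Without arrays 1 and 4, r was 0.38. Within Cy5 arrays it was 0.40 (n = 8) and within Cy3 arrays 0.65 (n = 6), the same sign in both. For Irf9 and Ifitm3, r was 0.12 (permutation p = 0.682, adjusted 0.682) and rho 0.12 (permutation p = 0.683, adjusted 0.683) over 14 arrays. Without arrays 15 and 3, r was 0.10. Within Cy5 arrays it was 0.66 (n = 8) and within Cy3 arrays -0.26 (n = 6). With the swaps turned, r was 0.62 for Irf7 and Irf9 (permutation test, adjusted p = 0.0613), 0.52 for Irf7 and Ifitm3 (adjusted 0.109) and 0.42 for Irf9 and Ifitm3 (adjusted 0.139). Turning the swaps gives genes chosen for a mean below 0 a shared step between the orientations. That step raises r by itself, so these r cannot show whether the genes vary together.

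**Figure D2:**
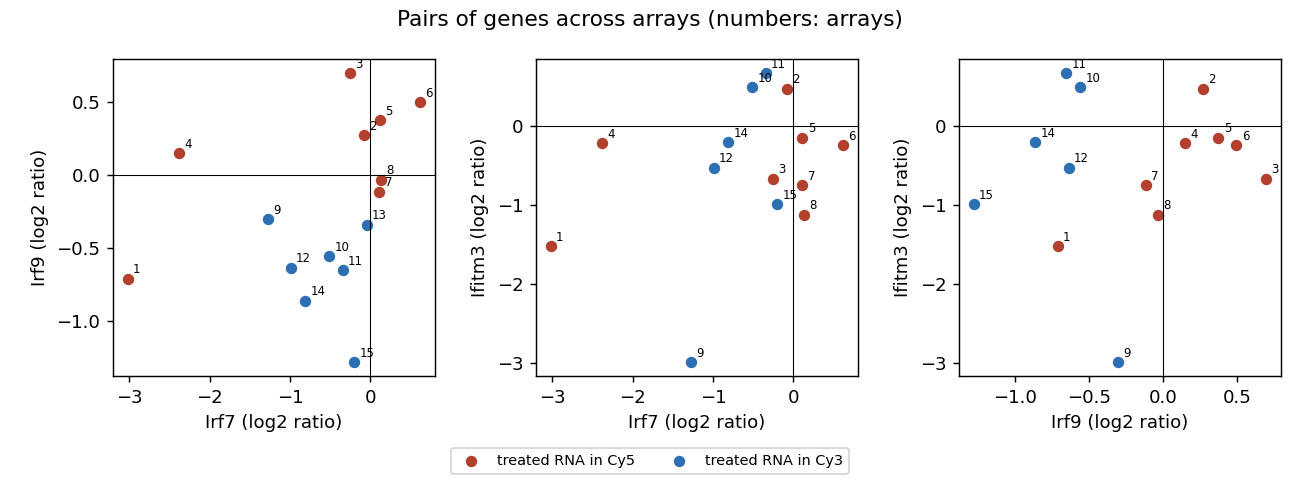
Log2 ratios of each pair of genes, a point per array with its number, treated RNA in Cy5 in red and in Cy3 in blue. Array 1 lies low for all 3 genes, array 4 is low for Irf7 alone, and array 9 is lowest for Ifitm3; pooled r was 0.30, 0.33 and 0.12.

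The genes whose ratios ran closest to each member were found by Pearson's r over its arrays, among the genes measured on all 15. For Irf7 these were Atp8a2 (r = 0.83), Zfand5 (0.80), Saa1 (0.78), Inmt (0.77) and Ttc13 (0.77) of 8296 genes. Without arrays 1 and 4, r fell to 0.34 for Atp8a2, 0.70 for Zfand5, 0.30 for Inmt and 0.46 for Ttc13, and was 0.90 for Saa1. Saa1, an acute phase serum amyloid gene, was the only one of the 5 that followed Irf7 within both orientations at an r above 0.9 (0.94 in Cy5 and 0.97 in Cy3).

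For Irf9 the closest were Dcaf7 (r = 0.92), Opa3 (0.90), Mtch1 (0.90), Arl11 (0.88) and Grrp1 (0.88) over 15 arrays. Without arrays 3 and 15 these r lay between 0.82 for Arl11 and 0.88 for Opa3. Within Cy5 arrays they lay between 0.81 for Mtch1 and 0.955 for Grrp1. Within Cy3 arrays they spread more, from 0.43 for Arl11 to 0.90 for Dcaf7. For Ifitm3 they were Swap70 (r = 0.87), Get3 (0.86), Actg1 (0.84), Glmp (0.81) and Atp5pb (0.81) over 14 arrays. Without arrays 9 and 1, r was 0.83 for Swap70, 0.75 for Get3, 0.75 for Glmp, 0.52 for Atp5pb and 0.46 for Actg1. Within Cy5 arrays r lay between 0.68 for Atp5pb and 0.91 for Get3, and within Cy3 arrays between 0.845 for Actg1 and 0.97 for Get3. Neither Irf7 nor Irf9, and no gene of the pathway list, was among the genes named as closest. Ifitm3 could not be, because it lacked a value on 1 of the 15 arrays. Pathway genes without a value on every array could not be either. Few genes were named out of many, so the absence of pathway genes cannot show whether the pathway followed the members. The named genes are the highest of many, and the points share arrays and dyes, so these r are descriptions.

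The dye component, 0.5 times the mean of the Cy5 arrays minus the mean of the Cy3 arrays, did not enter the choice of the genes and was tested. Limma's moderated test over 9720 genes passed 254 of them (2.61%) for this component, 187 of them above 0 (1.92%). Irf9 was among those above 0, at 0.40 ± 0.10 (SE; adjusted p = 0.0416 in limma, n = 15 arrays). The call was marginal: it was lost without any one of arrays 2, 3, 4, 5, 6, 9, 10, 11, 12, 14 or 15 (adjusted p from 0.0523 to 0.0875), and after centring the arrays (0.0519). Without array 1 the adjusted p was 0.0150.

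Irf7 had a dye component of 0.0013 ± 0.243 (SE; adjusted p = 0.998 in limma) and Ifitm3 of 0.033 ± 0.241 (adjusted p = 0.956), values whose errors leave room for differences in either direction. If the swaps were not turned, these would be the treatment values. Irf9 would then stand above 0, at 0.40 by a marginal call, and Irf7 and Ifitm3 near 0 with the wide errors given.

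Other genes of the interferon pathway were taken from a list of 160 genes in 9 role groups, of which 72 were on the arrays and 71 had enough values (Xaf1 did not). In limma's test of the treatment component, 0 of 71 passed, where 0.0412% of all genes did, and 3 of 71 (4.23%) had an unadjusted p under 0.05, where 7.02% of all genes did. The component was below 0 in 40 of 71 (56.3%), against 48.0% of all genes, with a median of -0.023 against 0.0054. If the swaps were not turned, the shares would be those of the dye component, in which 35 of 71 list genes (median 0.0071) and 4942 of 9720 genes (median -0.0034) were below 0. Limma's unadjusted p for the dye component was under 0.05 in 19 of 71 list genes (26.8%) and in 1895 of 9720 genes (19.5%). An SD over arrays as wide as that of Irf7 or Ifitm3 was found in 2 of the 71.

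Upstream of the members, no interferon ligand was on the arrays. Of 6 receptor subunits and kinases 4 were below 0, with a median of -0.012. Ifngr2, a chain of the interferon-gamma receptor, was at -0.11 ± 0.07 (SE) and Ifngr1, its partner, at -0.086 ± 0.060. Of 9 nucleic acid sensors and adaptors 3 were below 0 (median 0.019); Traf6, a ubiquitin ligase of Toll-like receptor signalling, was at 0.19 ± 0.10 and Tbk1, the kinase that activates IRF3, at 0.16 ± 0.09. Of 6 STAT and IRF factors 5 were below 0, with a median of -0.10; Irf4, a factor of lymphoid cells, was at -0.14 ± 0.07, Irf3, the factor activated by viral sensing, at -0.18 ± 0.09. None of these passed for the treatment component.

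Downstream, 18 of 29 antiviral effectors were below 0 (median -0.049). Trim25, a ubiquitin ligase of RNA sensing, was at -0.18 ± 0.06 (SE) and the secreted glycoprotein gene Lgals3bp at -0.15 ± 0.08. Of 4 relatives of Ifitm3, 2 were below 0 (median -0.0094), with Ifitm6 at -0.17 ± 0.08 and Ifitm10 at 0.14 ± 0.14. All 3 interferon-gamma GTPases on the arrays were above 0 (median 0.13), with Tgtp1 at 0.18 ± 0.07 and Gbp8 at 0.13 ± 0.09. Of 9 antigen presentation genes 4 were below 0 (median 0.018); the proteasome activator subunits Psme2 and Psme1 were each at 0.16, ± 0.16 and ± 0.18. Of 5 negative regulators 4 were below 0 (median -0.076), with Socs1, an inhibitor of JAK kinases, at -0.15 ± 0.07 and Ptpn6, a phosphatase, at -0.078 ± 0.054. None of these passed for it either. In the dye component the median had the opposite sign for receptors and kinases (0.17), sensors (-0.011), IFITM relatives (0.019), GTPases (-0.17) and negative regulators (0.098), so these directions depend on the reading of the swaps.

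For the dye component, 2 of the 71 passed limma's test, both above 0, where 254 of 9720 genes (2.61%) passed and 187 of those lay above 0. Ifngr2 ran from 0.001 to 0.71 (median 0.39) on the 8 Cy5 arrays and from -1.11 to -0.14 (median -0.57) on the 7 swaps, and these did not overlap. Its dye component was 0.51 ± 0.07 (SE; adjusted p = 0.00415 in limma, n = 15 arrays), and it passed without any single array. Bst2, which encodes tetherin, a protein that holds budding virus at the cell surface, ran from -0.04 to 0.75 (median 0.20) on Cy5 arrays and from -0.45 to -0.10 (median -0.30) on the swaps, without overlap. The dye component of Bst2 was 0.25 ± 0.06 (SE; adjusted p = 0.0407 in limma), and the call was lost without any one of arrays 2, 3, 5, 6, 8, 9, 10, 11, 12, 14 or 15 (adjusted p from 0.0504 to 0.0854).

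**Figure D3:**
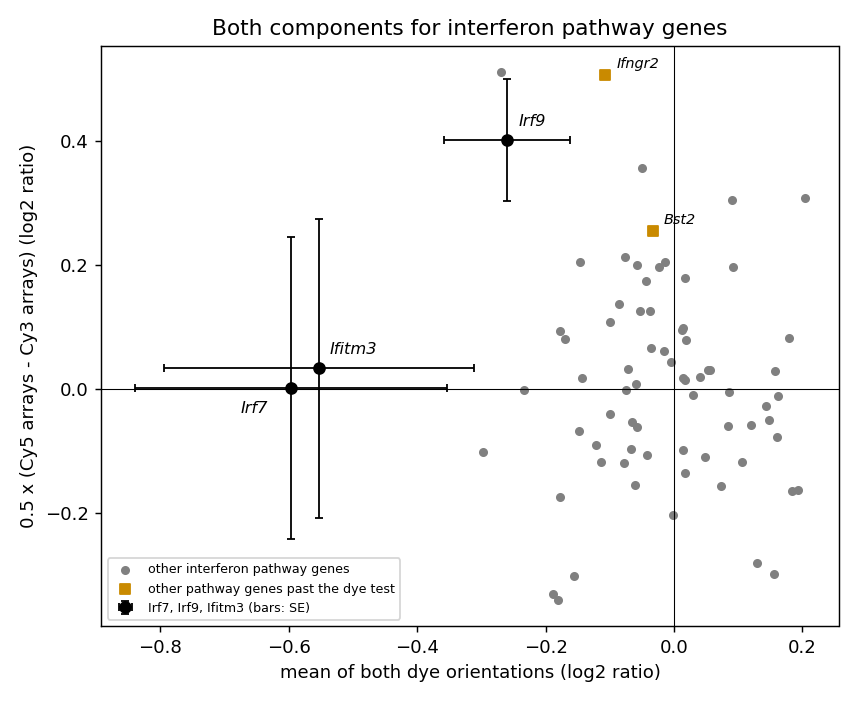
Mean of both dye orientations (x axis, log2 ratio) against the dye component (y axis, log2 ratio) for 71 interferon pathway genes, with Irf7, Irf9 and Ifitm3 in black (bars are SE). Irf7 and Ifitm3, chosen for their position on the x axis, lie far left and near 0 on the y axis, while Irf9 lies among the highest on it, below Ifngr2 and Tor3a; squares mark the 2 pathway genes past limma's test of the dye component.

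The median of the pathway list on single arrays was -0.019 on array 1, -0.045 on array 4 and -0.12 on array 9, within a range of -0.12 to 0.050 over all arrays. On array 9, where Ifitm3 was lowest, the list stood at the low end of its range. There 44 of 69 measured list genes were below 0, against 5107 of all 9567 measured genes. Array 10 had a list median of -0.12 too, with 43 of 71 below 0, and Ifitm3 was at 0.50 there.

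Markers of other cells that could carry interferon genes were read alongside. Myeloid markers had 16 of 19 genes below 0 in the treatment component (84.2%, median -0.075), against 48.0% of all genes; 0 passed limma's test, and 5 (26.3%) had an unadjusted p under 0.05, against 7.02% of all genes. In the dye component, which would carry the treatment if the swaps were not turned, 7 of the 19 were below 0 (median 0.044) and S100a9, a calcium-binding protein of neutrophils, passed. Their median on single arrays ran from -0.21 to 0.046; it was 0.046 on array 1, -0.053 on array 4 and -0.16 on array 9. Plasmacytoid dendritic cell markers had 4 of 6 below 0 (median -0.057; Bst2 belongs to this list too), T and NK cell markers 5 of 8 (median -0.059) and B cell markers 2 of 6 (median 0.022). Pluripotency markers had 4 of 10 below 0 (median 0.060) and fibroblast markers 4 of 14 (median 0.061). Of these 5 lists, the dye component had a median of the opposite sign for plasmacytoid dendritic cell (0.11) and pluripotency markers (-0.031). No gene of these lists passed for the treatment component. The marker lists were drawn up with earlier results of these data known, so their shares below 0 are descriptions. The part of these cells in the ratios of Irf7, Irf9 and Ifitm3 was not tested.

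The treatment component of each gene kept its sign with any single array left out. It ran from -0.68 to -0.42 for Irf7, with array 6 and array 1 left out. For Irf9 it ran from -0.30 to -0.20, with array 3 and array 1 left out. Ifitm3 had the widest span, from -0.68 without array 11 to -0.31 without array 9. Since the genes were chosen on these arrays, the shared sign is no independent check.

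**Figure D4:**
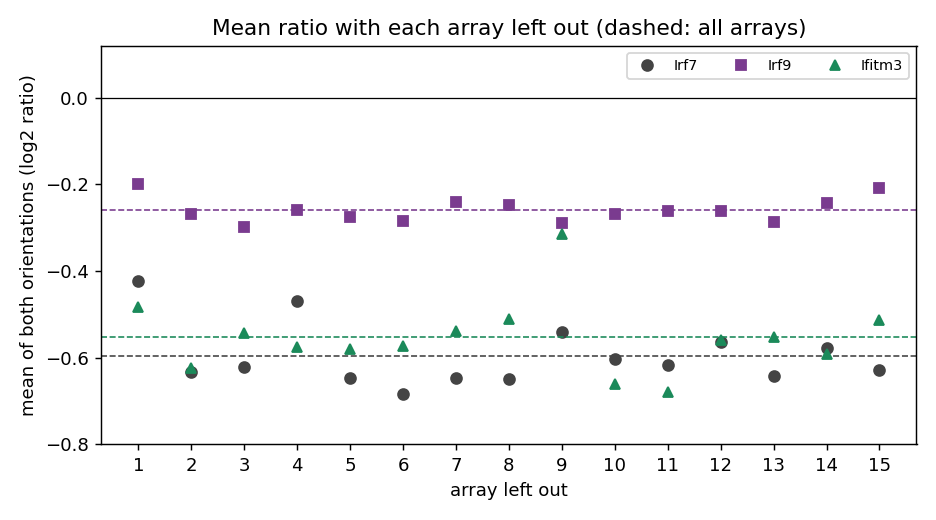
Mean of both dye orientations (y axis, log2 ratio) for Irf7, Irf9 and Ifitm3 with each array left out in turn (x axis); dashed lines are the values over all arrays, -0.60, -0.26 and -0.55. Ifitm3 moves most, to -0.31 without array 9, and Irf7 moves to -0.42 without array 1.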

How the data were processed

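The table holds log2 ratios of both channels per probe and array, as the authors deposited them; the values themselves show the log2 scale, and the sources used here do not state background correction, normalization or direction. Intensities were not used here, so signal over background is unknown, and precision is limited by how many arrays there are. Values with an absolute log2 above 10 equalled the log2 of 100000 around a constant of each array and were set missing. Dim values matched within 0.0015. In the platform annotation 13891 probes had a single symbol, 5 had more than 1 and 6309 had none; 13855 probes had an identifier found in RefSeq (GRCm38.p6). Probes of a gene were averaged on each array. Genes measured on 4 or more Cy5 arrays and 4 or more Cy3 arrays entered the fit in limma 3.58.1 in R 4.3.3 (lmFit, eBayes) with both components, with no further normalization, and were called at a Benjamini-Hochberg adjusted p under 0.05. The fit and the permutation test were tested on simulated data.

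The members and lists were chosen with earlier results of these data known. Named from the pathway list were genes passing either component and the 2 with the smallest unadjusted p for the treatment component in each role group; the 5 genes of highest r were named for each member. Alternatives covered normalization, filters, probes, weights, dim values, turned swaps, single orientations and arrays left out.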

Additional observations from a re-analysis of the deposited data

Results flagged for a closer look

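Irf9 differed between the dye orientations in limma's test over all genes, with a dye component of 0.40 ± 0.10 (SE, n = 15 arrays; adjusted p = 0.0416). It was below 0 on 7 of 7 swaps and above 0 on 5 of 8 Cy5 arrays. Ifngr2 (0.51, adjusted p = 0.00415 in limma) and Bst2 (0.25, adjusted p = 0.0407 in limma) also passed above 0, the side on which 187 of all 254 calls lay. Over all genes 254 of 9720 (2.61%) passed, and 2 of 71 list genes did. The calls of Irf9 and Bst2 were each lost in 11 of 15 fits with 1 array left out.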

How the results depend on the processing

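For the values that follow, the cause was not tested. With the dye swaps turned, the components trade places by construction: the pathway list had 2 treatment calls, the list and members had 0 dye calls, 254 of all genes passed for treatment and 4 for dye, Irf9 had a treatment component of 0.40, and dye components were -0.60 (Irf7), -0.26 (Irf9), -0.55 (Ifitm3), -0.11 (Ifngr2) and -0.033 (Bst2). Correlations were then 0.62 (Irf7, Irf9), 0.52 (Irf7, Ifitm3) and 0.42 (Irf9, Ifitm3), which include the shared step set by the choice of the genes. Centring ended the call of Irf9 (0.39, adjusted p = 0.0519 in limma) and put Irf7 at -0.013 for dye. The dye component of Irf7 was -0.14 with dim values left out and -0.086 without arrays 7, 8 and 15. That of Ifitm3 was -0.012 after scaling, -0.092 with array weights and -0.21 with dim values left out. The correlation of Irf9 with Ifitm3 turned to -0.067 after quantile normalization, and that of Irf7 with Irf9 to -0.060 with dim values left out. Array weights gave 7 dye calls among list and members, where the main fit gave 3, with 11 treatment and 676 dye calls over all genes. Treatment calls over all genes, 4 in the main fit, numbered 8 with placeholders left in, 8 with the most measured probe, and 0 without arrays 7, 8 and 15, with Cy5 alone or with Cy3 alone; dye calls numbered 571 without arrays 7, 8 and 15. Array weights put the treatment components at -0.40 (Irf7), -0.17 (Irf9) and -0.35 (Ifitm3), and leaving out dim values put Ifitm3 at -0.31.

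With single arrays left out, dye calls among list and members ran from 1 to 4, list treatment calls stayed at 0, and calls over all genes ran from 0 to 7 for treatment and from 99 to 431 for dye. Treatment components ran from -0.68 to -0.42 (Irf7), -0.30 to -0.20 (Irf9) and -0.68 to -0.31 (Ifitm3). Dye components ran from -0.085 to 0.17 (Irf7), 0.35 to 0.46 (Irf9), and -0.21 to 0.16 (Ifitm3). Correlations ran from 0.20 to 0.47 (Irf7, Irf9), 0.19 to 0.45 (Irf7, Ifitm3) and 0.051 to 0.22 (Irf9, Ifitm3). Each ratio already compares treated and untreated RNA within an array. Swaps could not be paired with Cy5 arrays, because the arrays form 1 group whose numbers do not repeat.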
